A study of Mus musculus with 672 samples.

Results

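Single female mouse embryonic fibroblasts (MEFs) of 1 plate were compared by how much mRNA of Acta2 they held. Acta2 encodes smooth muscle alpha-actin, the actin isoform that marks contractile fibroblasts, which are called myofibroblasts. The 86 day 0 cells of the table, of 567 cells in all, were ranked by Acta2. The 28 highest are called Acta2-high, the 28 lowest Acta2-low, and the 30 between them Acta2-middle. The members were chosen by their measured Acta2 level, so the Acta2 values below are a description of the choice. All other genes were then compared between the Acta2-high and the Acta2-low cells.

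The study followed X chromosome states while MEFs were reprogrammed to induced pluripotent stem cells. The MEFs came from a cross of Mus females with an X-linked GFP reporter and Cast males. All 86 cells shared their history up to day 0. At passage 1 they had been transduced with the lentiviruses tetO-FUW-OSKM, which carries Oct4, Sox2, Klf4 and Myc under a doxycycline-inducible promoter, and FUW-M2rtTA, which carries the activator that doxycycline switches on. They were then sorted without GFP, which leaves cells whose Mus X is the inactive one (Xi-Mus), and were taken before doxycycline. No label tells which animal or culture a cell came from. The plate was therefore 1 sample, cells were not treated as replicates, and no test was run and no p-value is given. All differences below describe these cells.

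In fibroblasts, mechanical tension and transforming growth factor beta (TGF-beta) are known to switch on Acta2 together with a set of smooth muscle genes. Serum response factor (SRF) drives many of these genes through a DNA element named the CArG box. Its coactivators of the myocardin family enter the nucleus when actin monomers are taken up into filaments. MEFs are known to be a mixed population. In culture, part of the cells form stress fibres that carry alpha-actin.

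Levels are given as reads per 100000, out of all reads that a cell had in genes. They are not divided by transcript length, so levels of different genes are not compared. Median depth was 551467 reads in the Acta2-low, 603921 in the Acta2-middle and 676982 in the Acta2-high cells. The lowest depths were 85291, 117295 and 60818 reads and the highest 1070928, 1004139 and 926685. Median numbers of genes with reads were 6500.5, 7058.5 and 6974.5, and the median mitochondrial shares were 3.20%, 2.98% and 2.76%. Spearman's rho of Acta2 over the 86 cells was 0.20 with depth, 0.21 with genes detected and -0.25 with the mitochondrial share. The well positions were mixed as well, with 12 Acta2-low and 17 Acta2-high cells in the first 4 rows of the plate. Values for subsets of cells by depth and by well row are given below. Beyond that, the part of these small shifts in the results was not tested. The cells carried a fibroblast profile. Of 12 fibroblast markers, 7 (Col1a1, Col1a2, Col3a1, Col5a2, Vim, Fn1 and Sparc) had reads in every cell, whereas Thy1 had reads in 47.7%, Pdgfra in 38.4% and Dcn in 33.7% of the cells. None of the markers of blood, endothelial, epithelial, mesothelial or neural cells passed the filter on low values, and the median summed level of each of these lists was at most 3.93 in the Acta2-low and the Acta2-high cells.

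Acta2 ran on across the limits between the groups. At the top, the highest cell (4617) stood apart from the second highest (2791). It lay between 0 and 344 (median 170) in the Acta2-low, between 376 and 744 (median 567) in the Acta2-middle, and between 774 and 4617 (median 1454) in the Acta2-high cells. The means of the high and the low cells were 1655 and 149, a ratio of 11.1. The cells on either side of the limits were close to each other, at 343.7 inside and 375.8 outside the low group, and at 774.5 inside and 744.0 outside the high group. A step was present lower down. In the low group, 13 cells had less than 100 reads, the highest of them 87.7, and the next cell had 168. Acta2 had reads in 85 of 86 cells. In the highest cell, Acta2 alone took 4.62% of all gene-assigned reads. In the later stages of the series the gene was nearly silent. Its median was 0 in each of the other 6 groups of cells, and its means were 0.244 to 2.35.

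**Figure D1:**
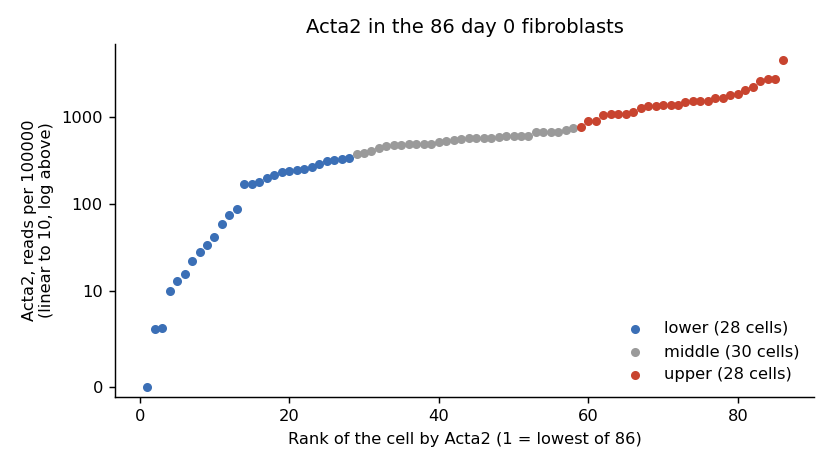
Acta2 in each of the 86 day 0 fibroblasts (y axis, reads per 100000, linear up to 10 and logarithmic above) against the rank of the cell by Acta2 (x axis). Each point is 1 cell, coloured by group; the levels run on across both limits, and the 13 lowest cells lie under 100.

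Of 3849 genes with a mean of at least 5 reads per 100000 over the 86 cells, 109 were at least 2-fold higher and 145 at least 2-fold lower in the Acta2-high cells. These are 2.83% and 3.77% of the genes, and the median log2 ratio over all of them was -0.06. The log2 ratio is that of the 2 group means after adding 1 read per 100000 to each, which understates differences of low genes. A gene that is low in 1 group can pass the filter through the other cells alone, so counts over list members that passed are descriptions. For 99 of the 109 higher genes and 131 of the 145 lower genes, the Acta2-middle mean lay between the other 2 means. These genes were chosen for the difference between the outer groups, and the same count over all genes was not made. A mean between the others can also come from a mix of cells with and without reads. These counts therefore do not show grading from cell to cell. No gene separated the groups completely, in either direction. In pairs of 1 high and 1 low cell, the high cell had the larger value in 75.6% of pairs for the median gene among the 109, and in 28.6% among the 145. Over the 86 cells, Spearman's rho with Acta2 reached at least 0.5 for 34 genes and at most -0.5 for 12. Cells share their plate and culture, so each rho is a description.

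**Figure D2:**
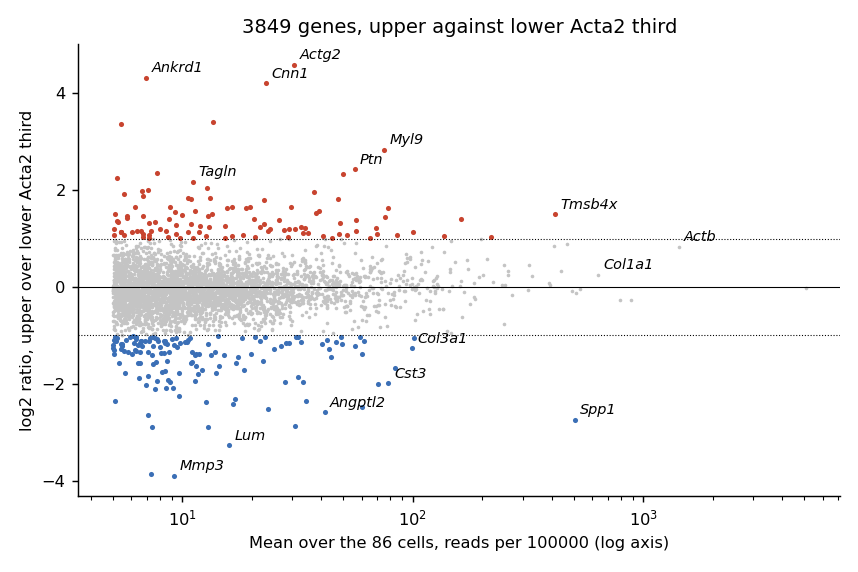
Log2 ratio of the Acta2-high over the Acta2-low mean (y axis) against the mean over the 86 cells (x axis, log scale) for 3849 genes. Red points are the 109 genes at least 2-fold higher and blue points the 145 at least 2-fold lower; dotted lines mark a 2-fold difference.

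The smooth muscle contractile genes went with Acta2. Of 17 measured members of this list, 9 passed the filter, 6 of these were at least 2-fold higher in the Acta2-high cells and none was 2-fold lower. Over all genes the share at least 2-fold higher was 2.83%. The median log2 ratio of the 9 genes was 1.81, against -0.06 for all genes. Actg2, Cnn1 and Tagln had means under 5 in the Acta2-low cells and passed only through the cells where they were higher, so they had to differ, and the count and the median are descriptions that lean on them. The 6 were Actg2, Cnn1, Myl9, Tagln, Csrp1 and Tpm2. The remaining 3 were Tpm1 (0.89), Cald1 (0.73) and Smtn (0.19). Filaments of alpha-actin are decorated by tropomyosin and calponin and pulled by myosin, and these are the products of Tpm2, Cnn1 and Myl9.

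Tagln encodes transgelin (SM22), an actin cross-linking protein of smooth muscle, and had the highest rho with Acta2 of the 2014 genes with a mean of at least 10 and reads in at least 50% of the cells, from which genes were named. It ranged from 0 to 10.9 (median 2.64) in the Acta2-low cells and from 5.04 to 48.4 (median 17.6) in the Acta2-high cells. The log2 ratio was 2.18, rho was 0.85, and the high cell exceeded the low cell in 97.4% of pairs. The ranges overlapped only between 5.04 and 10.9. Of the exonic bases of Tagln, 67.9% lie under another annotated gene, Gm48529. The libraries did not mark strand, so reads from the 2 genes cannot be told apart there. The same holds for smaller parts of Tuba1a (26.2%), Vcl (25.5%), Ube2c (22.8%), Gas1 (19.9%) and Spp1 (18.8%).

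Myl9, the regulatory light chain of smooth muscle and non-muscle myosin, had the second highest rho (0.80). It lay between 0 and 83.8 (median 15.0) in the Acta2-low and between 21 and 399 (median 148) in the Acta2-high cells, a log2 ratio of 2.83. All high cells had reads, against 82.1% of the low cells. Tpm2, beta-tropomyosin, lay between 0 and 71.5 (median 38.8) in the low and between 54.4 and 266 (median 108) in the high cells (log2 ratio 1.63, rho 0.76). Csrp1, a LIM protein of the smooth muscle cytoskeleton, lay between 0 and 54.5 (median 23.5) in the low and between 12.7 and 204 (median 64.9) in the high cells (log2 ratio 1.81, rho 0.76). The ranges of all 3 genes overlapped, but the high cell was above the low cell in 96.7%, 98.0% and 96.2% of pairs for Myl9, Tpm2 and Csrp1.

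Cnn1 and Actg2 differed in another way, by the number of cells that had reads at all. Cnn1, calponin, was found in 5 of 28 Acta2-low cells (17.9%, exact 95% interval 6.06 to 36.9%) and in 23 of 28 Acta2-high cells (82.1%, 63.1 to 93.9%). These intervals take the 28 cells as independent draws and cover counting error only, although the cells share 1 plate. After thinning to 100000 reads, which left out 1 shallower cell in each group, the shares were 18.5% and 81.5% of 27 cells each. The median of Cnn1 was 0 in the low and 23.8 in the high cells, the highest values were 27.5 and 320, and the log2 ratio of 4.21 was the highest of those 2014 genes. Actg2, the enteric smooth muscle actin, had reads in 17.9% of the low and 67.9% of the high cells, with highest values of 37.5 and 1371 and a log2 ratio of 4.59. A single cell held 55.97% of the Actg2 of the high group, and without the highest cell of each group the log2 ratio was 4.10. Acta2 and Actg2 share no exact run of 50 bases, the read length, in their annotated transcripts.

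The cell with the most Acta2 (4617) was also the cell with the most Actg2 (1371, the next cell 362), Cnn1 (320, next 144), Lmod1 (34.9), Myh11 (36.7) and Fhl1 (391). It had 762205 reads and 7730 genes with reads, within the range of the other cells. Myh11, the smooth muscle myosin heavy chain, had reads in 0 of 28 low cells, which allows a share of up to 10.7%, and in 3 of 28 high cells. Lmod1, leiomodin, which nucleates actin filaments in smooth muscle, stayed under the filter but had reads in 14.3% of the low and 85.7% of the high cells, with a rho of 0.70. Acta1, the skeletal actin, had reads in 17.9% and 39.3%.

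For each cell, the 6 genes that were at least 2-fold higher were scored as above or not above their plate median. Of 28 Acta2-high cells, 20 were above for at least 5 of the 6 genes and 16 for all 6. Of 28 Acta2-low cells none reached 5, and 14 were above for no gene. The Acta2-middle cells had a median of 3. The genes were picked for being higher in the Acta2-high cells, so the direction of these counts follows from the choice. Joint variation within a group differed between pairs of genes. For Tagln with Myl9, rho was 0.57 within the low and 0.73 within the high cells, whereas that of Tagln with Cnn1 was 0.13 and 0.35, and that of Myl9 with Cnn1 0.05 and 0.48. The relation went on inside the high group, where rho with Acta2 over its 28 cells was 0.76 for Tpm2, 0.75 for Tagln, 0.75 for Myl9, 0.72 for Csrp1 and 0.58 for Cnn1. Within the 28 low cells rho was 0.69 for Myl9 and 0.65 for Tagln, but 0.32 for Tpm2 and 0.22 for Csrp1. Within the 30 middle cells, which span a narrow range of Acta2, it was 0.48 for Tagln and 0.05 for Myl9.

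**Figure D3:**
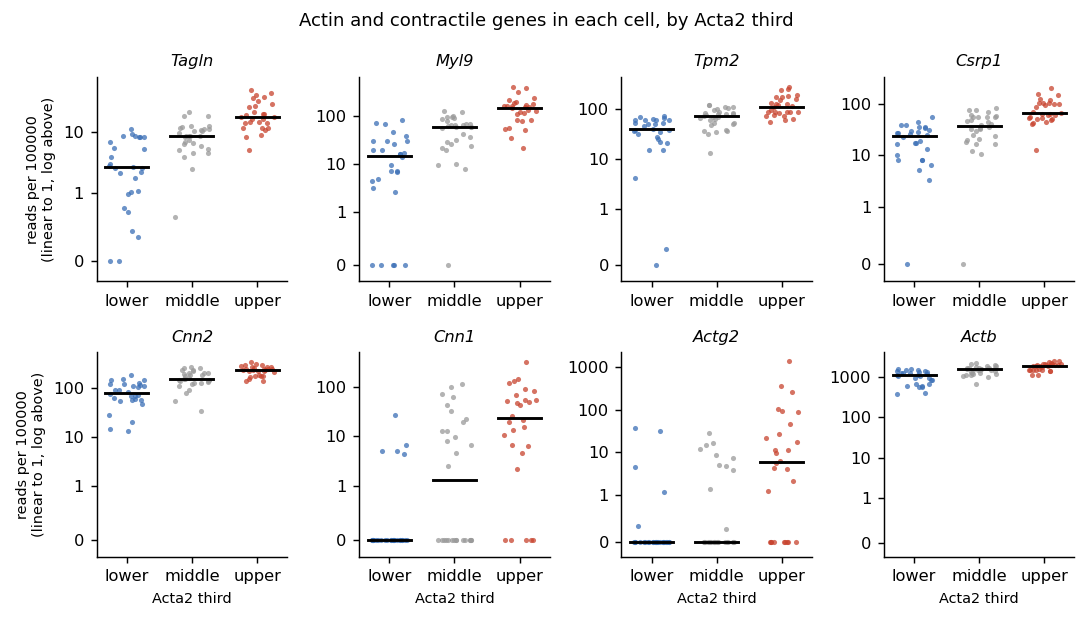
Reads per 100000 (y axis, linear up to 1 and logarithmic above) of 8 actin and contractile genes in each cell of the 3 Acta2 groups (x axis). Points are cells and black bars are group medians; Tagln, Myl9, Tpm2, Csrp1 and Cnn2 shift as a whole, while Cnn1 and Actg2 go from mostly 0 to mostly present.

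The wider actin cytoskeleton was higher as well, by smaller amounts. Of 27 genes of the actin cytoskeleton and focal adhesion list that passed the filter, 8 were at least 2-fold higher, none was 2-fold lower, and 26 had a log2 ratio above 0. Over all genes 2.83% were 2-fold higher and 3.77% 2-fold lower. The median of the 27 was 0.76. Flna, an X-linked filamin, which cross-links actin filaments, ranged from 0 to 122 (median 39.4) in the Acta2-low and from 22.6 to 263 (median 111) in the Acta2-high cells (log2 ratio 1.44, rho 0.68). Cnn2, the calponin of non-muscle cells, was the gene of this list with the highest rho. It lay between 13.3 and 185 (median 79.5) in the low and between 143 and 339 (median 240) in the high cells, with the high cell above in 98.2% of pairs (log2 ratio 1.41, rho 0.79). Vcl, vinculin, and Zyx, zyxin, both of focal adhesions, had log2 ratios of 1.20 and 1.10, and Actn1, an actin bundler, had 1.16. The Acta2-low mean of Actn1 was under the filter of 5, so it passed only through the other cells. Myl12b was the exception below 0 (-0.34).

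Beta-actin itself took part. Actb lay between 364 and 1535 (median 1064) in the Acta2-low and between 1072.5 and 2469 (median 1845) in the Acta2-high cells. Its log2 ratio was only 0.83, but rho was 0.67 and the high cell was above in 94.5% of pairs. Tmsb4x, thymosin beta-4, which holds actin monomers, had medians of 169 and 639 (log2 ratio 1.5, rho 0.63). Tuba1a, an alpha-tubulin, had medians of 26.9 and 79.3 (log2 ratio 1.38, rho 0.71), and Lpp, a focal adhesion protein of smooth muscle, medians of 41.7 and 85.2 (log2 ratio 1.23, rho 0.65). For each of these 4 genes the ranges of the groups overlapped. Actb and Tmsb4x have processed copies elsewhere in the genome, and reads that match several places were not counted.

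Genes tied to SRF were next. Of 10 genes in this list 4 passed the filter, and 3 were at least 2-fold higher, against 2.83% of all genes. The median of the 4 was 1.53, and with a filter at a mean of 1, which admits more members, it was 0.23. They were Fhl1 (1.97) and Fhl2 (1.24), LIM proteins of muscle, and Tes (1.83), a focal adhesion protein. Tes ranged from 0 to 28.9 (median 0.62) in the Acta2-low and from 0.67 to 55.7 (median 19.5) in the Acta2-high cells, with reads in 71.4% and 100% of them. The regulators did not pass the filter. Srf had means of 1.82 and 1.75 in low and high cells, and the coactivators Mkl1 and Mkl2 had 3.16 and 3.71, and 2.88 and 3.38. Myocd, myocardin, had reads in 7.14% and 14.3% of the cells.

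The 250 bases before the annotated start were searched for the CArG box on both strands in RefSeq promoters (GRCm38.p6). A match was found for 1.62% of 27025 genes with a promoter in the table and for 1.71% of the 3041 genes among those compared. It was found for 8 of 90 genes (8.89%) that were at least 2-fold higher in the Acta2-high cells and for 1 of 110 (0.909%) that were at least 2-fold lower. The 8 were Myl9, Cnn2, Fhl1, Fhl2, Vcl, Fermt2, Dusp5 and Gsto1, and the 1 was Cbr2. CATTCC, the core bound by TEAD factors, was found for 12.4% of the genes compared, 15.6% of the higher and 19.1% of the lower ones. TGANTCA, the AP-1 site, was found for 5.49%, 10.0% and 7.27%. A match is a description of letters and not a site shown to be bound. The following stretches of 6 of the 8 higher genes hold the match, in capitals, 5′ to 3′ on the strand of the gene. They are shown because each fits the CArG pattern, whose letters can differ between genes.
Myl9 (chr2:156775278-156775337, plus strand): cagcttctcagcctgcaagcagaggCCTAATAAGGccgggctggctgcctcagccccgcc
Cnn2 (chr10:79988519-79988578, plus strand): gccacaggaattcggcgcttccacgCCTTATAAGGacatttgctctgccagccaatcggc
Fhl1 (chrX:56779556-56779615, plus strand): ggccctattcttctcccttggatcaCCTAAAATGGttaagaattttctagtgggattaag
Fhl2 (chr1:43163962-43164017, minus strand): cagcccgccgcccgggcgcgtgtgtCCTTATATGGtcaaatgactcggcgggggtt
Vcl (chr14:20929148-20929205, plus strand): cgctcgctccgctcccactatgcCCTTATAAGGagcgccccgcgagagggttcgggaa
Fermt2 (chr14:45530235-45530294, minus strand): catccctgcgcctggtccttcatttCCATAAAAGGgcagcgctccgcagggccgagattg

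The match begins 161 bases before the start in Myl9, 56 in Cnn2, 102 in Fhl1, 31 in Fhl2, 227 in Vcl and 204 in Fermt2. The stretches of Fhl1 and Fhl2 lie inside the annotated genes (chrX:56731787-56793346 and chr1:43123074-43196984), so their starts are internal ones. Cnn2 and Vcl carry the same 10 letters. The window of Acta2 itself holds no match to the strict form searched here, which says only that these letters are absent from it. It holds the TEAD core on the opposite strand, 146 bases before the start, within an exon of an annotated transcript of Acta2.
Acta2 (chr19:34255502-34255531, minus strand, core in capitals): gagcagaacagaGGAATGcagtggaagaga

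Genes downstream of TGF-beta were split. Of 15 target genes that passed the filter 6 were at least 2-fold higher and 2 at least 2-fold lower, against 2.83% and 3.77% of all genes, and the median log2 ratio was 0.21. Postn, periostin, a matrix protein of activated fibroblasts, had reads in 25% of the Acta2-low and 82.1% of the Acta2-high cells, with medians of 0 and 43.6 and a log2 ratio of 2.33. A single low cell held 65.6% of the Postn of its group, and without the highest cell of each group the ratio was 3.52. Lrrc15, a membrane protein of activated fibroblasts, had reads in 21.4% and 71.4% of the cells (log2 ratio 1.99). The collagen IV genes Col4a2 (1.65) and Col4a1 (1.20), the matrix protein gene Tnc (1.06) and Ctgf (1.04) were the others. Tgfbi (-1.03) and Cthrc1 (-1.28), which are induced by TGF-beta as well, were lower. Both had Acta2-high means under the filter of 5 (4.62 and 2.31) and passed only through the other cells. Lrrc15 was under 5 in the Acta2-low cells in the same way. Among ligands and their carriers Inhba, a subunit of activin, was higher (medians 6.22 and 43.6, log2 ratio 1.53), while Tgfb2 (0.31) and Tgfb3 (0.08) differed little. None of the 5 receptors and Smads that passed the filter differed 2-fold.

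Other contact and tension genes were named by the lists. Ankrd1, a target of YAP and TEAD and a nuclear and sarcomeric protein, had no reads in any of the 28 Acta2-low cells, which allows a share of up to 10.7%. It had reads in 10 of 28 Acta2-high cells (35.7%, exact 95% interval 18.6 to 55.9%) with a highest value of 206. Of 12 genes of its list it was the only one past 2-fold, against 2.83% of all genes at least 2-fold higher. With no reads in the low cells, it passed the filter only through the other cells. Cyr61, another target, had a log2 ratio of 0.33. Ctgf (1.04) was counted with the TGF-beta targets and not in this list. Of 5 integrins that passed, Itga5, the alpha subunit of a fibronectin receptor, was higher (medians 10.8 and 47.7, log2 ratio 1.57), and the collagen receptor subunit Itga11 had 0.91. Cdc42ep3, which binds septins and actin, was higher as well (medians 8.63 and 37.6, log2 ratio 1.66).

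Other genes of high ratio were of varied function. Ptn, pleiotrophin, a secreted growth factor, had medians of 0 and 11.2 and highest values of 204 and 677 (log2 ratio 2.43, rho 0.47). Ncam1, a neural cell adhesion molecule, had reads in 39.3% of the Acta2-low and in all Acta2-high cells, with medians of 0 and 19.4 (log2 ratio 1.82, rho 0.61). Thy1, a surface marker of fibroblasts, stayed under the filter but had reads in 25% and 75% of the cells. Foxs1, a forkhead factor, had reads in 25% and 71.4% (log2 ratio 1.91). Of 9 genes of the insulin-like growth factor axis that passed, 3 were at least 2-fold higher, against 2.83% of all genes. They were Igfbp6 (1.55), Grb10 (1.11) and Igfbp7 (1.01). The median log2 ratio of the 9 was -0.34, and only 4 of them lay above 0. A single low cell held 67.1% of its group's Igfbp6, and without the highest cell of each group that ratio was 2.44.

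Angptl2, an angiopoietin-like secreted glycoprotein, had the lowest rho of the 2014 eligible genes (-0.61). It lay between 1.80 and 506 (median 47.1) in the Acta2-low and between 0 and 88.2 (median 4.98) in the Acta2-high cells, a log2 ratio of -2.58. Every low cell had reads, against 64.3% of the high cells. Spp1, osteopontin, a secreted phosphoprotein, had the lowest log2 ratio of the eligible genes (-2.74). It lay between 0 and 9632 (median 414) in the low and between 0 and 1362 (median 19.3) in the high cells. The spread was wide in both groups, and 1 low cell held 35.2% of the group's Spp1. The same cell, which had 15.8 reads per 100000 of Acta2, was the highest of the plate for Angptl2 and Mmp3.

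Mgp, matrix Gla protein, an inhibitor of calcification, had medians of 28.3 and 1.76 (log2 ratio -2.35, rho -0.50). Cst3, cystatin C, a secreted inhibitor of cysteine proteases, was present in every cell of both groups. It lay between 17.8 and 558 (median 97.6) in the Acta2-low and between 8.91 and 99.9 (median 30.3) in the Acta2-high cells (log2 ratio -1.98). Grn, progranulin, lay between 29.3 and 164 (median 72.7) in the low and between 1.34 and 76.3 (median 34.6) in the high cells. Its log2 ratio was -1.22, and the high cell was above in only 11.7% of pairs. Ecm1 (rho -0.58), Sdc2, a syndecan (-0.55), Gja1, the gap junction protein connexin 43 (-0.53), and Lgmn, the lysosomal protease legumain (-0.51), were further genes of low rho. Their log2 ratios were -1.27, -1.13, -1.38 and -1.21. Hmgn3, a nucleosome-binding protein, had medians of 13.9 and 3.64 (rho -0.59).

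The remaining genes with the lowest ratios were Cxcl5, Itm2a, Gas2, Capn6, Wisp2, Anxa8, Mt1 and Tspan11, with log2 ratios from -2.52 to -1.95. Wisp2, a matricellular protein related to Ctgf, had medians of 91.6 and 5.70, whereas Ctgf itself was higher in the Acta2-high cells. Mt1, a metallothionein, had medians of 37.9 and 10.9, and 1 low cell held 32.6% of the group's Mt1. Itm2a rested on a few cells to a like degree, with 33.8% in 1 low cell.

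**Figure D4:**
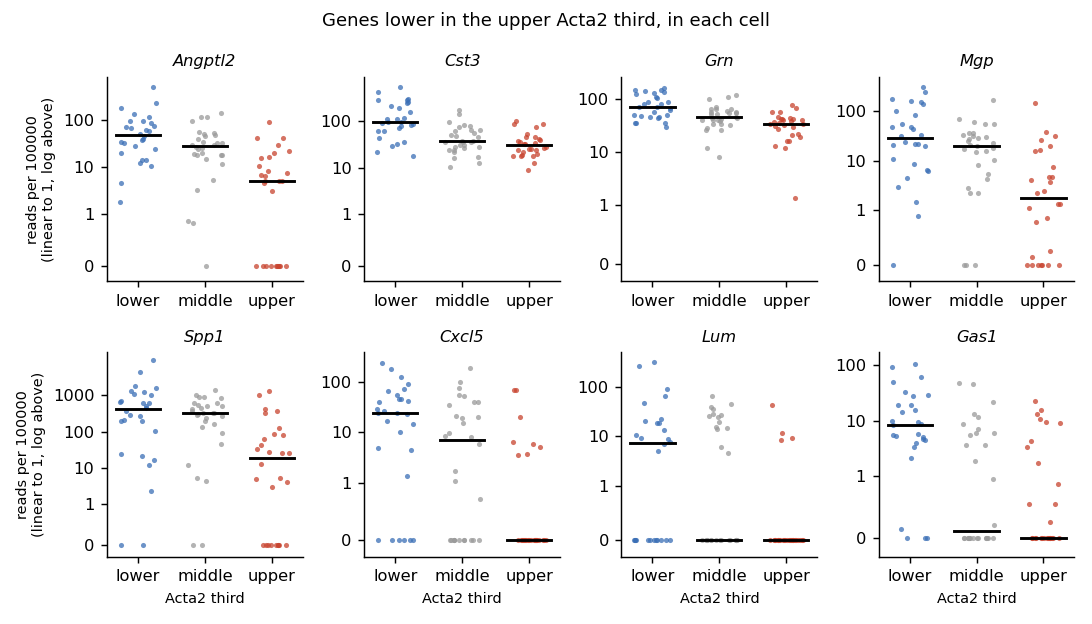
Reads per 100000 (y axis, linear up to 1 and logarithmic above) in each cell of the 3 Acta2 groups (x axis) for 8 genes that were lower in the Acta2-high cells. Points are cells and black bars are group medians; Cst3 and Grn shift in nearly all cells, while Cxcl5 and Lum have a median of 0 in the Acta2-high cells.

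Of 12 chemokine, cytokine and acute phase genes that passed, 6 were at least 2-fold lower in the Acta2-high cells and 1 was 2-fold higher, against 3.77% and 2.83% of all genes. The median log2 ratio was -0.92, and 3 of the 12 lay above 0. Among the cells at or below the median summed level of proliferation genes, ranked again, the list median was -0.32 and the log2 ratio of Il1rl1 was -0.06. In the last 4 well rows that of Ptx3 was 0.29. Cxcl5, a neutrophil chemokine, had reads in 78.6% of the Acta2-low cells (exact 95% interval 59 to 91.7%) and in 28.6% of the Acta2-high cells (13.2 to 48.7%), with medians of 24.4 and 0. After thinning the shares were 77.8% and 29.6% of 27 cells each. Cxcl1 (-2.10), Il1rl1, the interleukin 33 receptor (-1.66), Cxcl14 (-1.35), Ptx3 (-1.17) and Ccl2 (-1.10) were the other 5. Cxcl1 and Cxcl14 had Acta2-high means of 2.91 and 2.92, under the filter of 5, and passed only through the other cells. Ccl2 followed Acta2 little from cell to cell, with reads in 64.3% of the low and 71.4% of the high cells and a rho of -0.08. Vcam1 was the gene that was higher (1.09), but its Acta2-low mean was under the filter of 5, so it passed only through the other cells. Cxcl5 and Il1rl1 varied together, with a rho of 0.61 over the 86 cells and 0.54 within the low cells. Of 4 MHC class I genes that passed, Tapbp was 2-fold lower (-1.05), and the near-identical H2-D1 (-0.89) and H2-K1 (-0.87), whose reads may be exchanged, were on the same side.

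Collagen I, the main fibrillar collagen, differed little between the groups. Col1a1 had medians of 439 and 663 (log2 ratio 0.26) and Col1a2 of 301 and 330 (0.23), in overlapping ranges. Of 12 fibrillar and associated collagens none was 2-fold higher and 2 were 2-fold lower, against 2.83% and 3.77% of all genes. Col3a1, of reticular fibres, was lower in the Acta2-high cells (medians 118 and 44.96, log2 ratio -1.27), and so was Col5a3 (-1.84). Of 21 matrix glycoproteins and proteoglycans none was 2-fold higher, which is near the 2.83% over all genes, and 4 were 2-fold lower, against 3.77%. These were Lum, lumican, a proteoglycan of collagen fibrils (-3.26), Matn2 (-1.55), Fbln1 (-1.12) and Ccdc80 (-1.05). Lum, Matn2 and Fbln1, like Col5a3, had Acta2-high means under the filter of 5 and passed only through the other cells. Lum had reads in 57.1% of the Acta2-low and 14.3% of the Acta2-high cells. Of 12 matrix proteases and their inhibitors 3 were 2-fold lower, again against 3.77%. They were Mmp3 (-3.89), Mmp2 (-1.18) and Plat (-1.03). Mmp3 rested on few cells, with reads in 28.6% and 10.7%. Its Acta2-high mean was 0.607, under the filter of 5, so it passed only through the other cells. In the basement membrane list Nid1 was higher (1.24) and Col18a1 lower (-1.56). Gas1 (-2.26), a membrane protein of resting fibroblasts, and Sfrp2 (-3.86), a secreted Wnt regulator, were lower too, but 1 low cell held 67.8% of its group's Sfrp2.

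Genes of proliferation had lower means in the Acta2-high cells without following Acta2. Of 8 mitosis genes that passed, 4 were 2-fold lower (Ube2c, Cdk1, Top2a and Ccna2, log2 ratios -2.02 to -1.74), with a list median of -1.30. Over all genes 3.77% were 2-fold lower. Of 10 DNA replication genes 3 were 2-fold lower, with a median of -0.79. The Acta2-high means of Ube2c, Cdk1, Top2a and Ccna2 were 2.63, 3.19, 3.67 and 3.30, under the filter of 5. Those of the replication genes Mcm3 and Mcm5 were 3.55 and 2.23. These genes passed only through the other cells, so the counts and medians are descriptions that lean on them. The summed level of both lists, however, had a median of 71.5 in the Acta2-low and 87.3 in the Acta2-high cells, and a rho of -0.05 with Acta2. The means were 313 and 144, and the highest cells 1363 and 735. The highest levels were thus in the Acta2-low cells, while the medians ran the other way. Top2a had reads in 32.1% of the cells of each group. Among the 43 cells at or below the median summed level, ranked again, the median of the mitosis list was 0.09, and among the 43 cells at or below the median depth it was 0.40. Each comparison set 14 cells against 14. The cells of low summed level were picked by these same genes, which leaves out the cells where they are high. The small mitosis median there therefore follows from the choice. Over the cells at or below the median summed level the contractile list had a median of 2.35.

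**Figure D5:**
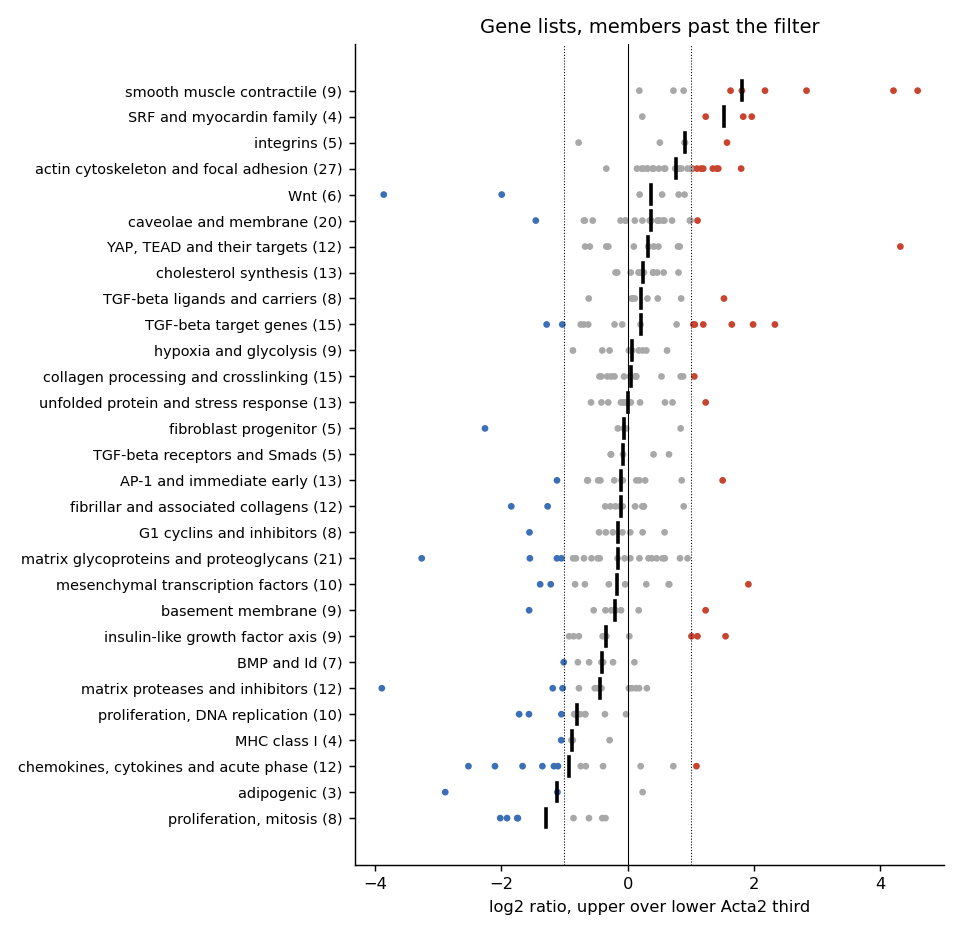
Log2 ratio of the Acta2-high over the Acta2-low mean (x axis) for the members past the filter of gene lists with at least 3 such members (rows, number of members in brackets). Points are genes, red at least 2-fold higher and blue at least 2-fold lower, and black bars are list medians; the smooth muscle contractile list stands highest with 1.81 and the mitosis list lowest with -1.30.

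Many other lists lay near 0. The median log2 ratio was 0.24 for 13 cholesterol synthesis genes, 0.07 for 9 genes of hypoxia and glycolysis, 0.06 for 15 genes of collagen processing, 0.00 for 13 genes of the unfolded protein and stress response, and -0.10 for 13 AP-1 and immediate early genes. Single members of these lists still differed. P4ha3, a collagen prolyl hydroxylase subunit (1.06), Herpud1 (1.24) and Klf10, a gene induced by TGF-beta (1.5), were higher, and Dusp1 was lower (-1.12). Bmp4, a growth factor, had reads in 78.6% of the Acta2-low and 28.6% of the Acta2-high cells (log2 ratio -1.01). None of 29 measured body position factors, mostly Hox genes, passed the filter. Their summed level still had medians of 42.6 in the Acta2-low, 29.7 in the Acta2-middle and 25.8 in the Acta2-high cells, in overlapping ranges. Single members went both ways, as Hoxa10 was lower and Hoxc8 higher in the Acta2-high cells. Among the factors used for reprogramming, Pou5f1 and Sox2 had reads in at most 3.57% of the cells of either group, and Myc had a log2 ratio of 0.04.

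The 13 cells under 100 reads of Acta2 differed from the other low cells in part of these genes. Against the other 15 Acta2-low cells, their means were 12.1 and 27.6 for Myl9, 1.93 and 5.48 for Tagln, and 31 and 46.7 for Tpm2, with the Acta2-high means at 151, 20.8 and 124. For genes of the low side, means were 101 and 53.9 for Angptl2 and 182 and 123 for Cst3, but 26.3 and 54.4 for Cxcl5 and 97.2 and 129 for Wisp2. The medians of Cxcl5 were nearly equal, at 23.5 and 24.5, and those of Wisp2 were 74.3 and 131. Without the 13 cells the counts were 98 genes higher and 122 lower, of which 74 and 90 were among the 109 and 145.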

How the data were processed

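Single cells were sorted into plates and sequenced by Smart-seq2 with Nextera XT libraries, which carry no strand mark and no molecular identifiers. The authors aligned reads with STAR 2.5.3a to mm10, counted uniquely aligned ones with featureCounts and kept cells with over 4000 and under 10000 genes and under 8% mitochondrial reads. The deposited values are natural log values, made by the authors with Seurat 3.1.1, of 1 plus reads per 10000 (exp of the value minus 1 summed to 10000 in every cell). Here they were turned into reads per 100000 with Python 3.11.15, numpy 2.4.6, pandas 2.3.3 and scipy 1.17.1, and plotted with matplotlib 3.10.9.

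The 86 cells were ranked by Acta2 and split into 28, 30 and 28. Genes with a mean of at least 5 were compared by the log2 ratio of group means with a pseudocount of 1 read per 100000. With 1 plate there are no replicates, so no test was run. Named genes are the 12 highest and 12 lowest by ratio and the 10 highest and 10 lowest by Spearman's rho, taken from genes that averaged 10 or more and had reads in at least 50% of cells, plus members of 41 gene lists; a few of these results are not reported here. Members and lists were chosen with earlier results of these data known. Shares have exact (Clopper-Pearson) 95% intervals, and a share of 0 is given with the limit that 3 counts allow. Alternatives were 17 planned settings and 2 added after seeing the data. A value was taken to have moved when it changed by over 1.5-fold. The calculation was tested on simulated data.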

Additional observations from a re-analysis of the deposited data

How the results depend on the processing

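All values rest on 1 plate, and depth limits what can be said of genes read in few cells. Of 19 alternative settings, 2 were chosen after seeing the data. The numbers of genes at least 2-fold higher and lower were 54 and 65 for the upper 43 against the lower 43 cells, 32 and 31 with a pseudocount of 10, 245 and 428 with a filter at a mean of 1, 44 and 36 with a filter at 20, 196 and 220 in the last 4 well rows, and 212 and 221 in the cells at or below the median depth. As a difference of mean log2(value + 1) they were 186 and 131, so that 58.7% of the differences were on the higher side, against 42.9%. Of 560 list medians over these settings, 541 stayed within 1.5-fold of the reported ratio. Single genes were less stable: of 1798 values, 1522 stayed so, 265 moved and 11 changed sign. Itm2a ranged from -3.98 to -0.23 and Mmp3 from -5.56 to -0.88. The reported medians were -1.11 for the adipogenic list and 0.37 for the Wnt list. The SRF list had 0.905 for 43 against 43 cells and 0.23 with a filter at 1, which admits more genes, and the integrins had 0.18 with that filter. The adipogenic list of 3 genes had -0.50 with a pseudocount of 10, -0.18 with a filter at 1, -0.24 above the median depth and -1.83 at or below the median proliferation sum. At that sum, the chemokine list had -0.32, DNA replication -0.026, the insulin-like growth factor axis 0.33 and mitosis 0.086. Cells at that sum were picked by the proliferation genes themselves, so the values of those genes there follow in part from the choice. The growth factor axis had 0.31 with a filter at 20, the Wnt list -0.23 in the first 4 rows and DNA replication -0.053 in the last 4. Mitosis had -0.26 for 43 against 43 cells, -0.60 with a pseudocount of 10, -0.28 as a difference of logs, -0.011 in the last 4 rows and 0.40 at or below the median depth. Single genes turned to the higher side at or below the median proliferation sum (Ccna2 0.075, Ccne1 0.11, Mcm3 0.62, Top2a 0.63, Ube2c 0.097), at or below the median depth (Ccne1 0.20, Top2a 0.35, Ube2c 0.91), in the last 4 rows (Mcm3 0.36, Ptx3 0.29) and without the 13 lowest cells (Ccne1 0.35). The cause was not tested. No paired analysis was possible because no test was run and the compared cells come from 1 plate.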

Other observations

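The following genes were chosen after their values were seen, and each value is a mean in reads per 100000 over the cells of a group of this 1 plate. F2r, the thrombin receptor, had means of 28.5 in the Acta2-low, 44.2 in the Acta2-middle and 72.4 in the Acta2-high cells (log2 ratio 1.32), with a rho of 0.59. Nes, nestin, had a log2 ratio of 1.33, Dpysl3 of 1.30 and Map1b of 1.15.

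Genes that bind or convert retinoids were split. Crabp2, a retinoic acid binding protein, had means of 47.8, 34.9 and 12.5 from the Acta2-low to the Acta2-high cells, and Dhrs3, a retinaldehyde reductase, had 15.8, 15.0 and 3.86. Crabp1 had 4.23, 13.4 and 20.6, with a rho of only 0.07. Penk, proenkephalin, was highest in the Acta2-middle cells, with means of 24, 63.7 and 2.41. Il1rn, the interleukin 1 receptor antagonist, had 17.4, 19.3 and 1.5. Man2b1 and Fuca1, both lysosomal glycosidases, had log2 ratios of -1.40 and -1.16.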
